A study of Mus musculus with 61 samples.

Results

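The immunoglobulin heavy-chain (Igh) locus of mouse B cells was followed here through 3500 pairs of 1 kb bins that join the middle of the mapped stretch to the stretch around the IgG1 and IgG3 capture sites. One end of each pair lay between 60 and 130 kb from the start of the map and the other between 130 and 180 kb, which made them 3500 of the 27495 bin pairs in each contact map, or 12.7%. The rule names positions and no measured value, though these positions were picked with earlier results of the same maps known. Pairs whose far end lay between 130 and 150 kb (1400 pairs) are called the IgG1 part, and those with it between 150 and 180 kb (2100 pairs) the IgG3 part. The deposited maps carry no genome coordinates, so positions are given in kb from the first bin.

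During class switch recombination an activated B cell exchanges the constant region of its antibody by joining switch regions that lie far apart along the Igh locus. Each switch region sits upstream of a constant gene and has a promoter of its own, which is transcribed before recombination. AID, the cytidine deaminase that starts the process, acts on transcribed switch regions, and cells without AID do not switch. LPS with IL4 directs mouse B cells mainly to IgG1, and LPS alone mainly to IgG3. The Emu enhancer stands at the donor end of the constant region and hs4 belongs to the regulatory region at the other end. The constant genes run in the following order in RefSeq's GRCm38.p6, a later assembly than the one these maps used: Igha, Ighe, Ighg2c, Ighg2b, Ighg1, Ighg3, Ighd and Ighm. The IgG2a capture site is named here as the labels name it.

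The method, Tri-C, captures ligated fragments through a chosen viewpoint and records which other fragments were on the same molecule. A signal at a bin pair therefore means that both bins were found together with the viewpoint. The 5 viewpoints lay at 31 kb (hs4) and 85 kb (IgG2a) and in the blocks 140-150 kb (IgG1), 160-170 kb (IgG3) and 220-230 kb (Emu). The IgG2a viewpoint is inside the mid-locus end of the member pairs, the IgG1 and IgG3 viewpoints are inside the other end, and hs4 and Emu lie outside both.

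The 61 libraries came from primary mouse B cells in 4 sets. In the first, cells named B18AIDKO (AID knockout) were kept 0, 48 or 72 h in activating culture, in a medium listing LPS and IL4. They were captured from IgG1 (4, 6 and 6 libraries, over clones 1 and 2), hs4 (2, 3 and 3) and Emu (2, 3 and 3). The libraries called replicate 1 of 0 h here are all titled rep1+3, and the labels do not say what this means. In the second, Spt5-depleted cells, activated for 62 h with 4HT over the last 32 h, were set against cells labelled WT, for which no activation time is given. They were captured from IgG1 (5 depleted and 4 control libraries, over clones 1 and 2) and from IgG2a (3 and 2), and their titles do not name AIDKO. The titles of these IgG1 libraries name the capture IgG1pool, where those of the first set name IgG1. The labels do not say how the captures differ, and they are counted here as 1. Spt5 is an elongation factor of RNA polymerase II. In the third set, B18AIDKO cells activated for 72 h received no triptolide (TPL), or TPL for 1 h or 3 h, with 3 Emu libraries each. Triptolide blocks the initiation of transcription. In the fourth, B18AIDKO cells whose titles name LPS were captured from IgG3 on day 3 and on day 0, with 3 libraries each. Their growth protocol lists IL4 beside LPS, so whether these cells received LPS alone cannot be told from the labels. The labels do not say what a clone is, and all libraries from probes other than IgG1 carry the name of clone 1. Nothing in the labels ties replicates to separate animals, so the p-values measure the spread between libraries.

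Each deposited map sums to 300000, so the values are given as percent of a library's map total. The values could be traced back to whole contacts, from 5400 to 89789 per library (median 20693), of which 16 to 4770 (median 676) fell in the member pairs. These contact counts are estimates, above all where values on the diagonal of the map did not come out whole. The share of diagonal values that came out whole was lowest in the TPL set, at 61.5 to 67.5% without TPL, 72.97 to 85.7% after 1 h and 89.7 to 94.9% after 3 h. Of the 3500 members, 2749 held signal in at least 1 library and 751 in none, and 3 of the 70 mid-locus bins were blank throughout. No pair of libraries held identical values. Pairs under 10 kb apart made up between 52.7% and 93.3% of a map, and a library rich in them has a smaller share left for all other pairs. This short-range share is given for each set below. Tests across the map used limma on 10 kb block pairs, 35 of which tile the members exactly among 300 in all. A block pair was called at a Benjamini-Hochberg adjusted p under 0.05, and log2 changes are of the signal plus 50. Limma draws the variance of each block pair or total toward a prior fitted over all tested ones. Its SEs and p-values therefore do not measure the spread of that value alone.

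Across the groups the members held the most in the IgG1 capture of unactivated cells, with a mean of 10.6% ± 0.956 (SD, n = 4). The IgG3 capture followed, with 5.58% ± 0.973 on day 3 and 5.88% ± 1.04 on day 0 (SD, n = 3 each). The lowest group means were those of Emu, with 0.934% ± 0.0956 at 48 h and 0.872% ± 0.0773 in activated cells without TPL (SD, n = 3 each). Captures from different sites were not tested against each other, since the viewpoint itself sets much of the map.

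**Figure D1:**
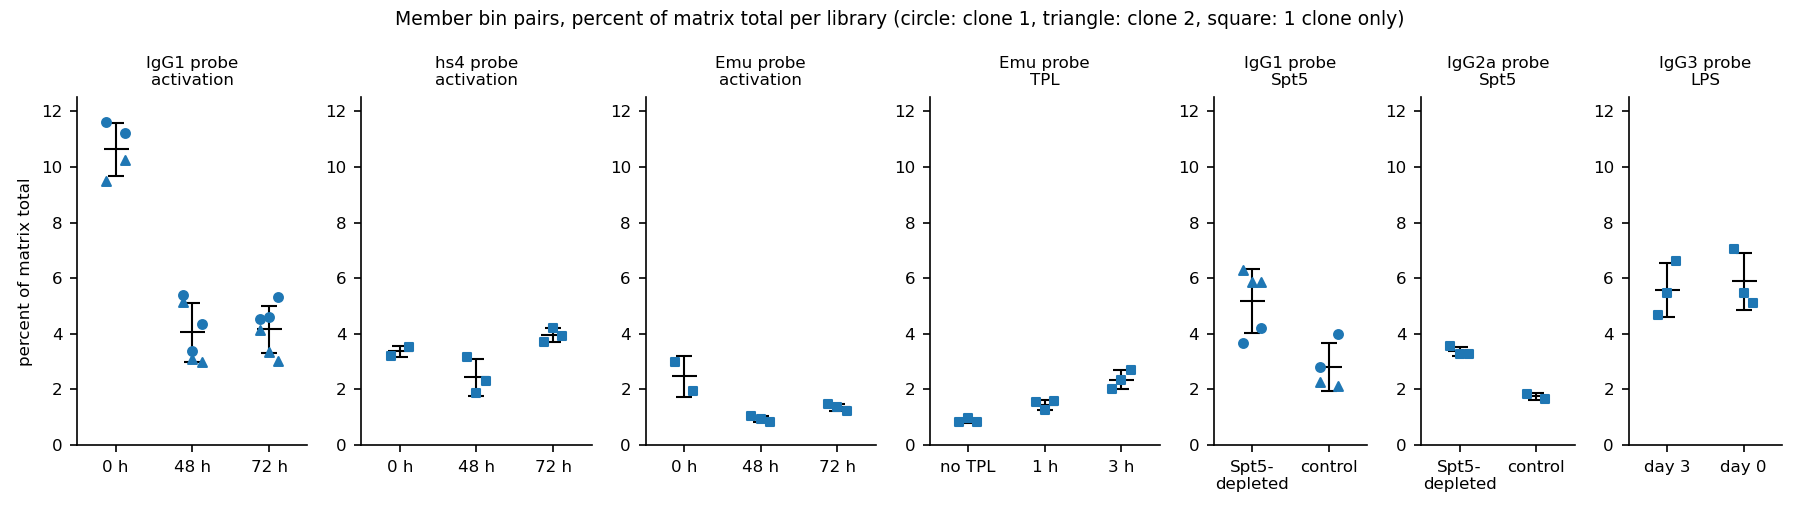
Member pairs as a percent of the map total, in each library. Points are libraries (circles clone 1, triangles clone 2, squares probes with 1 clone only) and bars are mean ± SD. In the IgG1 capture the 0 h libraries lie between 9.49% and 11.6%, above all libraries at 48 h and 72 h.

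Within the members the pair of blocks that meet at the border, 120-130 kb with 130-140 kb, had the highest mean in 3 of the 5 captures. It averaged 0.629% over the 25 libraries titled IgG1 or IgG1pool, 0.612% over the 8 hs4 libraries and 0.273% over the 17 Emu libraries. In the other two captures the highest block pair touched the viewpoint. It was 80-90 kb with 130-140 kb in IgG2a (0.225%, n = 5) and 120-130 kb with 160-170 kb in IgG3 (0.678%, n = 6).

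Contacts of the mid-locus with the IgG1 and IgG3 stretch fell on activation of B18AIDKO cells when seen from IgG1. At 0 h the members held 11.6 and 11.2% of the map in clone 1 and 9.49 and 10.2% in clone 2. At 48 h the 6 libraries ranged from 2.98 to 5.39% with a median of 3.87%, and at 72 h from 3.01 to 5.31% with a median of 4.34%. No library at either later time reached the lowest 0 h library. The mean was 4.06% ± 1.06 at 48 h (SD, n = 6) and 4.16% ± 0.857 at 72 h (SD, n = 6).

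With clones averaged by replicate number, the fall was 2.67-fold at 48 h, a log2 change of -1.42 (SE 0.14, limma adjusted p = 6.8e-10). At 72 h it was 2.55-fold, a log2 change of -1.35 (SE 0.14, limma adjusted p = 2.0e-09). The 2 comparisons share their 0 h libraries. Between 72 h and 48 h the change was 0.07 on the log2 scale (SE 0.12, limma adjusted p = 0.93), and its sign turned on leaving out replicate 2 of 48 h (-0.08).

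Both parts fell. The IgG1 part held 2.55% ± 0.630 at 48 h and 2.61% ± 0.543 at 72 h, against 6.80% ± 0.797 at 0 h. Its log2 changes were -1.44 at 48 h and -1.38 at 72 h (SE 0.15 each; limma adjusted p = 2.4e-09 and 6.4e-09). The IgG3 part held 1.51% ± 0.478 at 48 h and 1.55% ± 0.351 at 72 h, against 3.84% ± 0.230 at 0 h. Its log2 changes were -1.37 and -1.30 (SE 0.17 each; limma adjusted p = 1.0e-07 and 2.6e-07). The division between the parts moved little, since the IgG1 part made up 57.7 to 66.98% of member signal at 48 h and 60.3 to 67.9% at 72 h, against 61.6 to 66.4% at 0 h.

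**Figure D2:**
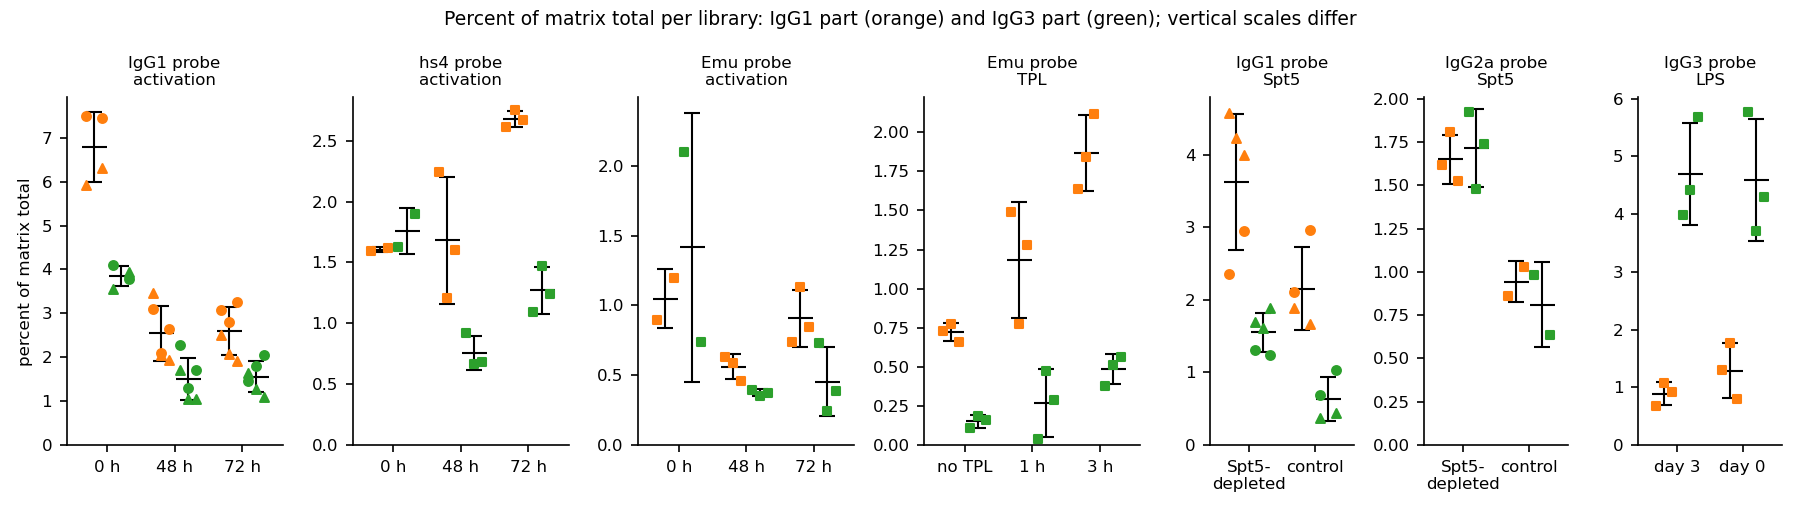
The IgG1 part (orange) and the IgG3 part (green) as percent of the map total in each library, on scales that differ between panels. In the hs4 capture the IgG3 part lies between 0.662% and 0.917% at 48 h and between 1.63% and 1.90% at 0 h, while the IgG1 part ranges over 1.21% to 2.24% at 48 h and 1.59% to 1.62% at 0 h.

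At the level of 10 kb blocks all 35 member block pairs could be tested in this capture. At 48 h, 27 of 35 were called lower and 0 higher, where 41.2% of all 255 tested block pairs were called and 27.5% were called lower. At 72 h, 26 of 35 were called lower and 0 higher, where 41.2% of all block pairs were called and 25.1% were called lower. The median log2 change of the members was -1.31 at 48 h (range -2.16 to -0.22) against -0.34 over all tested block pairs. At 72 h it was -1.26 (range -2.19 to 0.25) against -0.25. Libraries of the later time and of 0 h did not overlap in 16 member block pairs called at 48 h and 18 at 72 h, where 22.4% and 24.3% of all tested block pairs were called without overlap. Between 72 h and 48 h, limma called 0 of 35, with 0% called over the map. Voom on the recovered contacts also called 0 members, and 1 higher and 0 lower over the map. At an unadjusted p under 0.05 there was 1 member, against 18 of all 255 tested block pairs.

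The steepest falls joined blocks well inside both stretches. At 48 h the pair 100-110 kb with 160-170 kb held 0.0225 to 0.129% (median 0.0584%), against 0.403, 0.266, 0.332 and 0.296% at 0 h. Its log2 change was -2.16 (SE 0.40, limma adjusted p = 1.0e-04). The pair 90-100 kb with 150-160 kb held 0.00346 to 0.0854% (median 0.0126%) at 48 h, against 0.203, 0.132, 0.140 and 0.132% at 0 h, a change of -2.12 (SE 0.56). With an estimated 24082 to 31893 recovered contacts per library at 48 h, the low values of this pair rest on few contacts. In both block pairs every 48 h library lay below every 0 h library.

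Pairs that reach the block holding the IgG1 viewpoint fell as well. The pair 100-110 kb with 140-150 kb held 0.115 to 0.165% (median 0.138%) at 48 h, against 0.592, 0.681, 0.602 and 0.492% at 0 h. The pair 70-80 kb with 140-150 kb held 0.174 to 0.265% (median 0.217%), against 1.06, 0.521, 0.950 and 0.542%. Their log2 changes were -1.97 and -1.66. The block that holds the IgG2a viewpoint site, 80-90 kb, with 160-170 kb held 0.0441 to 0.111% (median 0.0646%) at 48 h, against 0.294, 0.326, 0.164 and 0.304% at 0 h, a change of -1.78.

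At 72 h the same rule named 5 block pairs, of which 3 were also named at 48 h. The pair 90-100 kb with 150-160 kb held 0 to 0.0848% (median 0.0159%), a log2 change of -2.19 (SE 0.56, limma adjusted p = 0.0020), and its low values again rest on few contacts. The pair 100-110 kb with 160-170 kb held 0.0171 to 0.102% (median 0.0825%; change -1.96), and 100-110 kb with 140-150 kb held 0.0848 to 0.282% (median 0.113%; change -1.88). The other two had ends in the 70-80 kb block. With 170-180 kb that block held 0.0153 to 0.0928% (median 0.0391%) at 72 h, against 0.231, 0.230, 0.117 and 0.218% at 0 h, a change of -1.87. With 130-140 kb it held 0.0507 to 0.163% (median 0.0936%), against 0.373, 0.398, 0.238 and 0.375%, a change of -1.62.

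**Figure D3:**
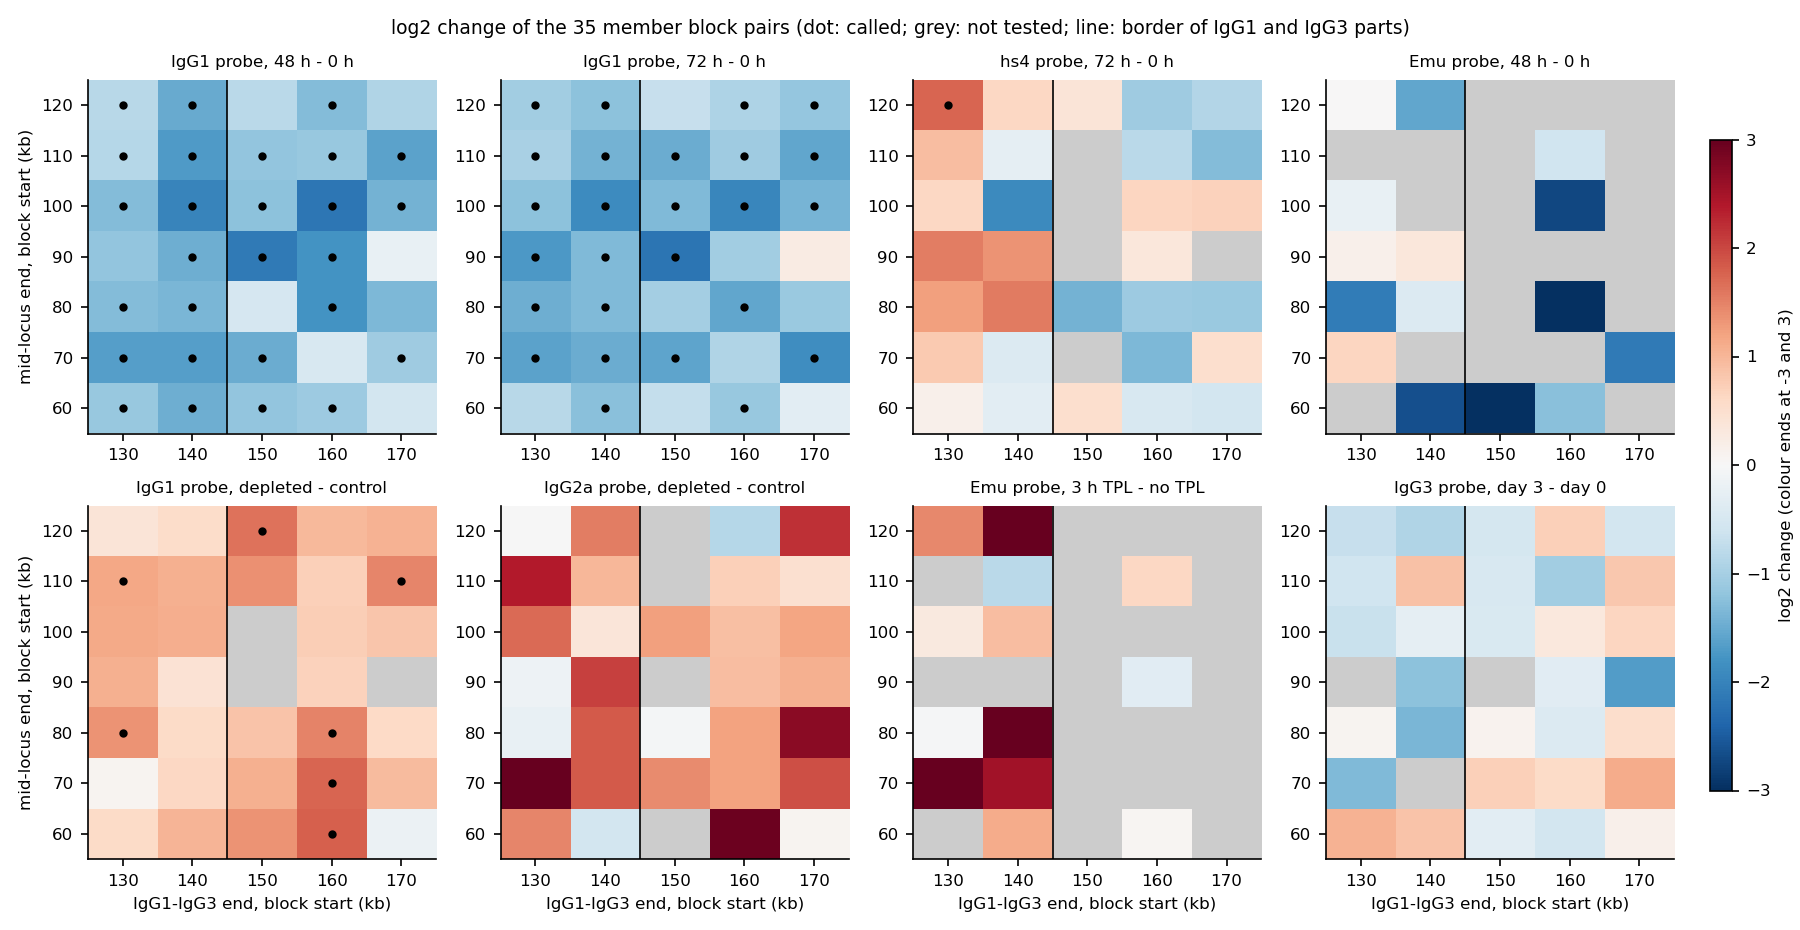
Log2 change of each of the 35 member block pairs in 8 comparisons, with mid-locus blocks along one axis and blocks of the IgG1 and IgG3 stretch along the other (kb from the first bin). Dots mark called block pairs, grey marks pairs too low to test, and the line separates the IgG1 from the IgG3 part. The IgG1 capture shows falls across both parts at 48 h and 72 h.

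Windows of 11 bins around the viewpoint sites gave values of the same order. From IgG1, the IgG2a window paired with the IgG1 window at 0.0657 to 0.254% (median 0.164%) at 48 h and at 0.109 to 0.257% (median 0.159%) at 72 h, against 0.471, 0.512, 0.259 and 0.419% at 0 h. The IgG2a window paired with the IgG3 window at 0.0152 to 0.135% (median 0.0659%) at 48 h and at 0.0216 to 0.108% (median 0.0593%) at 72 h, against 0.221, 0.208, 0.184 and 0.289% at 0 h. All 12 libraries of the later times lay below all 4 libraries of 0 h for both window pairs.

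To set the members beside other pairs of equal separation, their signal was divided by the signal that the same number of pairs would hold at the mean of all non-member pairs with the same separation. This distance-matched ratio was 0.740 to 1.11 at 48 h and 0.691 to 0.833 at 72 h, against 1.93 to 2.00 at 0 h. The difference was -1.10 at 48 h and -1.20 at 72 h, each with an exact two-sided permutation p of 0.1, which is the smallest that 3 against 2 averaged replicates allow (0.167 adjusted over 15 comparisons). Members made up 17.5% of the signal with an end in the mid-locus at 48 h and 19.99% at 72 h, against 25.4% at 0 h. Of the signal with an end in the IgG1 and IgG3 stretch they made up 8.98% at 48 h and 9.05% at 72 h, against 21.1% at 0 h.

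Short-range shares were higher in the activated cells. Pairs under 10 kb apart held 63.1 to 75.8% of the maps at 48 h and 60.96 to 75.95% at 72 h, against 56.7 to 64.2% at 0 h. Among pairs at least 10 kb apart the members held 10.4 to 15.4% at 48 h and 10.7 to 13.1% at 72 h, against 24.9 to 26.99% at 0 h, so the groups stayed apart without short pairs. Members were also a smaller share of the bin pairs with any signal, at 9.18 to 11.4% at 48 h and 8.87 to 10.8% at 72 h, against 16.9 to 19.7% at 0 h. The number of members called at 48 h was 16 under median-of-ratios scaling, where 36.9% of all block pairs were called, and 14 without short pairs, where 26.8% were called. None of these members was higher. Over the whole map the split turned with these settings. At 48 h, 35 block pairs were called higher and 70 lower, against 60 higher and 34 lower under median-of-ratios scaling and 44 higher and 26 lower without short pairs. At 72 h, 41 were called higher and 64 lower, against 59 and 48 under that scaling and 53 and 39 without short pairs. Median-of-ratios scaling moved the median of all block pairs at 48 h to 0.01 and that of the members to -0.92. The number of members called at 48 h fell on leaving out either averaged replicate of 0 h. With averaged replicates left out in turn, the log2 change of the total at 48 h lay between -1.62 and -1.27.

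**Figure D4:**
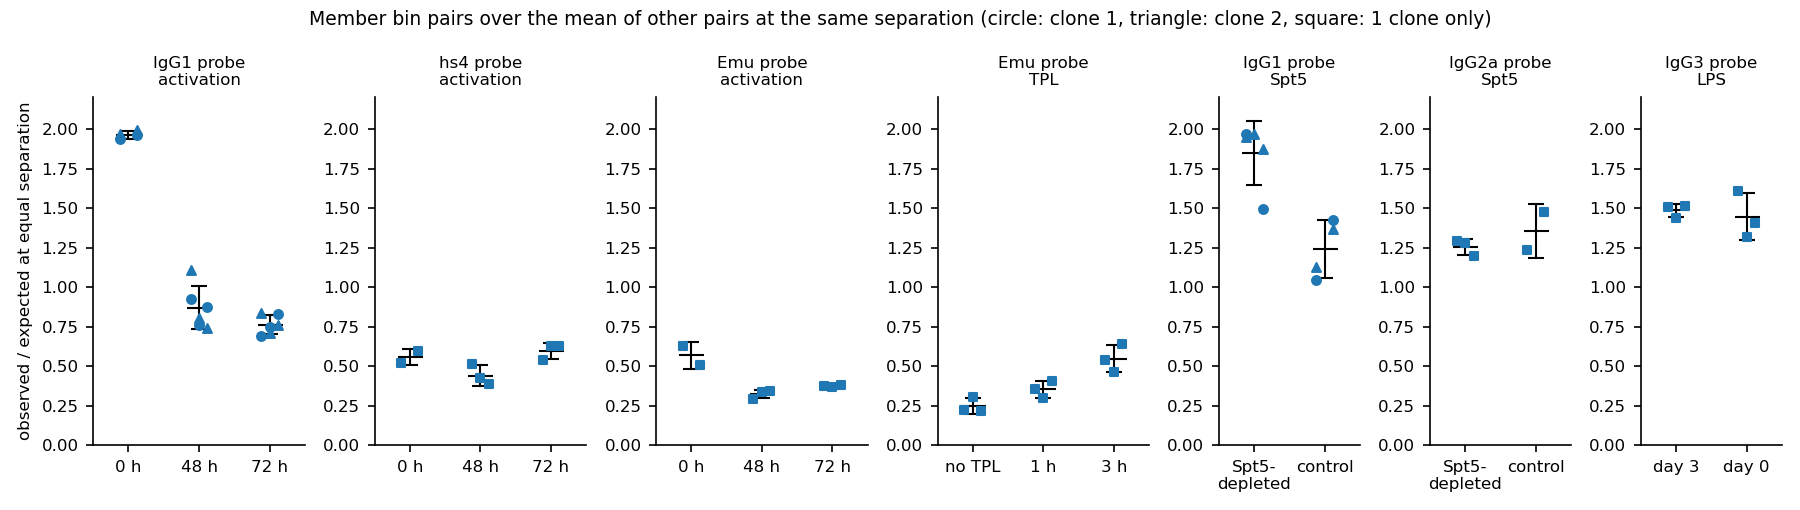
Member signal relative to non-member pairs of equal separation, in each library (points) with mean ± SD. A ratio of 1 means equal signal. In the IgG1 capture the ratio lies between 1.93 and 2.00 at 0 h and between 0.691 and 1.11 at the later times.

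Seen from hs4, the member total did not pass the test on activation, while its IgG3 part fell at 48 h. Members held 3.22 and 3.51% at 0 h, 3.16, 1.87 and 2.29% at 48 h and 3.71, 4.22 and 3.91% at 72 h. The log2 change was -0.50 at 48 h (SE 0.22, limma adjusted p = 0.19) and 0.23 at 72 h (SE 0.22, limma adjusted p = 0.64). Between 72 h and 48 h it was 0.72 (limma adjusted p = 0.22), although every 72 h library lay above every 48 h library. Without replicate 1 of 48 h, the highest of its group, the change at 48 h was -0.70 (limma adjusted p = 0.021) and that of 72 h against 48 h was 0.93 (limma adjusted p = 0.0015).

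The IgG3 part fell at 48 h, to 0.917, 0.662 and 0.686%, against 1.63 and 1.90% at 0 h. The log2 change was -1.21 (SE 0.31, limma adjusted p = 0.016). At 72 h the IgG3 part held 1.09, 1.47 and 1.24%, a change of -0.47 from 0 h that did not pass the test (limma adjusted p = 0.44). The short-range share was 58.7, 71.9 and 63.6% at 48 h and 56.5, 56.9 and 57.3% at 72 h, against 52.7 and 54.3% at 0 h, so every later library lay above both 0 h libraries. The call at 48 h was lost without pairs under 10 kb (-0.81, limma adjusted p = 0.20) and under median-of-ratios scaling (-0.90, limma adjusted p = 0.13). The same call was lost with a constant prior variance (limma adjusted p = 0.21), with voom (-0.77, limma adjusted p = 0.10) and with a block for replicate number (-1.18, limma adjusted p = 0.064). It was also lost without replicate 1 of 0 h (-1.32), replicate 2 of 0 h (-1.11) or replicate 3 of 48 h (-1.16), each left out in turn.

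The IgG1 part held 2.24, 1.21 and 1.60% at 48 h, against 1.59 and 1.62% at 0 h, a log2 change of 0.02 (limma adjusted p = 0.96). At 72 h it held 2.61, 2.75 and 2.67%, a change of 0.73 (limma adjusted p = 0.096), with every 72 h library above both 0 h libraries. The share of member signal in the IgG1 part was 64.5 to 70.96% at 48 h and 65.1 to 70.5% at 72 h, against 46.1 to 49.4% at 0 h. The 130-140 kb block held 44.03% of member signal at 48 h and 48.8% at 72 h, against 22.8% at 0 h.

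Of the 35 member block pairs 30 were tested. At 48 h limma called 0, where 3.14% of all block pairs were called. These were 5 higher and 3 lower, with 8 and 2 under median-of-ratios scaling and 1 and 1 without short pairs. At an unadjusted p under 0.05 there were 2 members, against 48 of all 255 tested block pairs. Voom called 0 members, and 7 higher and 12 lower over the map. At 72 h 1 was called, higher, where 2.75% were called over the map. It was 120-130 kb with 130-140 kb, which held 1.00, 1.23 and 0.637% at 72 h, against 0.232 and 0.301% at 0 h (log2 change 1.74, SE 0.43, limma adjusted p = 0.014). Its libraries did not overlap, which the naming rule requires, and called block pairs without overlap made up 2.75% of the map. Its ends are between 1 and 19 kb apart, and the call was lost without the pairs under 10 kb (1.51) and with a constant prior variance. It was also lost without replicate 1 of 0 h (1.57), replicate 1 of 72 h (1.68) or replicate 2 of 72 h (1.54). Between 72 h and 48 h limma called 0 (0% over the map). At an unadjusted p under 0.05 there were 2 members, against 19 of all 255 tested block pairs. Voom called 0 members, and 0 higher and 1 lower over the map.

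Over the members the median separation of a contact was 45.8, 39.7 and 41.5 kb at 48 h and 41.9, 38.3 and 47.5 kb at 72 h, against 51.5 and 68.9 kb at 0 h. Pairs 1 to 20 kb apart made up 29.6% of member signal at 48 h and 29.9% at 72 h, against 10.5% at 0 h. Pairs more than 60 kb apart made up 31.4% at 48 h and 35.3% at 72 h, against 47.1% at 0 h. The distance-matched ratio stayed under 1 throughout, at 0.510, 0.425 and 0.385 at 48 h and 0.539, 0.626 and 0.624 at 72 h, against 0.521 and 0.595 at 0 h. The IgG2a window paired with the IgG1 window at 0.00959, 0.0403 and 0.0879% at 48 h and at 0.151, 0.122 and 0.139% at 72 h, against 0.0186 and 0.0487% at 0 h, values that rest on few contacts. Members made up 6.43% of the signal with an end in the mid-locus at 48 h and 10.02% at 72 h, against 9.60% at 0 h (exact permutation p = 0.2 and 0.7).

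From Emu, on the other side of the members, the total fell at 48 h. Members held 3.00 and 1.93% at 0 h, 1.03, 0.939 and 0.837% at 48 h and 1.47, 1.38 and 1.23% at 72 h. The log2 change was -1.35 at 48 h (SE 0.30, limma adjusted p = 0.017) and -0.82 at 72 h (SE 0.30, limma adjusted p = 0.11). All 6 later libraries lay below both 0 h libraries. The short-range share was 75.8, 82.1 and 83.9% at 48 h and 74.3, 76.1 and 80.4% at 72 h, against 68.5 and 71.9% at 0 h, with all 6 later libraries above both 0 h libraries. The call at 48 h was lost without pairs under 10 kb (-0.82, limma adjusted p = 0.060) and under median-of-ratios scaling (-1.05, limma adjusted p = 0.060). The same call was lost with a constant prior variance (limma adjusted p = 0.15) and with a block for replicate number (-1.28, limma adjusted p = 0.066). Leaving out the 5 bins on either side of the border between the ends lost this call too (-1.19, limma adjusted p = 0.098). It was also lost without replicate 1 of 0 h (-1.04), replicate 2 of 48 h (-1.36) or replicate 3 of 48 h (-1.28). Without replicate 2 of 0 h, the lower of its pair, the change at 72 h was -1.13 (limma adjusted p = 0.032).

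Neither part passed the test by itself. The IgG3 part held 0.397, 0.349 and 0.376% at 48 h and 0.731, 0.247 and 0.385% at 72 h, against 2.10 and 0.736% at 0 h. Its log2 changes were -1.69 at 48 h (limma adjusted p = 0.070) and -1.56 at 72 h (limma adjusted p = 0.096). Without replicate 2 of 0 h they were -2.44 (limma adjusted p = 0.0029) and -2.30 (limma adjusted p = 0.0062). The IgG1 part had log2 changes of -0.88 at 48 h (limma adjusted p = 0.15) and -0.21 at 72 h (limma adjusted p = 0.79).

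Of the members, 15 block pairs were tested and limma called 0 at 48 h, 0 at 72 h and 0 between 72 h and 48 h. Over the map 7.25%, 7.73% and 0% of block pairs were called in these comparisons. At 48 h the map-wide calls were 9 higher and 6 lower, with 12 and 3 under median-of-ratios scaling and 14 and 0 without short pairs. At 72 h they were 12 higher and 4 lower, with 14 and 2 without short pairs. At an unadjusted p under 0.05 the members numbered 4, 3 and 1, against 50, 49 and 17 over all tested block pairs. Over the map voom called 5 higher and 12 lower at 48 h, and 5 higher and 4 lower at 72 h. Between 72 h and 48 h it called 1 higher and 1 lower. Of the members voom called 1, 0 and 0. Without replicate 2 of 0 h limma called 1 at 48 h. The distance-matched ratio was 0.294 to 0.340 at 48 h and 0.370 to 0.378 at 72 h, against 0.628 and 0.508 at 0 h. Members made up 5.07% of the signal with an end in the IgG1 and IgG3 stretch at 48 h and 5.67% at 72 h, against 15.3% at 0 h. Of the signal with an end in the mid-locus they made up 6.69% at 48 h and 7.47% at 72 h, against 8.48% at 0 h (exact permutation p = 0.3 and 0.4).

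The response to activation was then compared between captures with an interaction term in limma. For the IgG1 part, the change in the IgG1 capture minus that in the hs4 capture, where this part was not called, was -1.46 on the log2 scale at 48 h (limma adjusted p = 0.0090) and -2.11 at 72 h (limma adjusted p = 3.8e-04). The 48 h call was lost without pairs under 10 kb (-1.25, limma adjusted p = 0.074), without bins near the viewpoint (-1.12, limma adjusted p = 0.059), without the 5 bins on either side of the border (-1.17, limma adjusted p = 0.33) and with a constant prior variance (limma adjusted p = 0.099). The 72 h call was lost without the border bins (-1.68, limma adjusted p = 0.096). For the whole set of members the same difference was -0.92 at 48 h (limma adjusted p = 0.075; called in 4 of 24 fits that left out 1 library or averaged replicate, -1.13 to -0.72) and -1.58 at 72 h (limma adjusted p = 9.4e-04), a call also lost without the border bins (-1.20, limma adjusted p = 0.096).

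Against Emu the differences were smaller. The IgG1 capture minus the Emu capture gave -0.06 for all members at 48 h (limma adjusted p = 0.96) and -0.53 at 72 h (limma adjusted p = 0.35). For the IgG1 part the values were -0.56 (limma adjusted p = 0.45) and -1.17 (limma adjusted p = 0.041). The last call was lost in 12 of 24 fits that left out 1 library or averaged replicate (-1.37 to -0.96), and without pairs under 10 kb, without the border bins, with a constant prior variance and with sample weights. The hs4 capture minus the Emu capture gave 0.86 for all members at 48 h (limma adjusted p = 0.072) and 1.05 at 72 h (limma adjusted p = 0.041), a call lost in 14 of 24 such fits (0.73 to 1.36) and in 7 of the other alternatives (0.70 to 1.07). For the IgG3 part, none of the 6 differences between captures was called by limma. Over the map, the block pairs called for the IgG1 minus hs4 difference made up 5.84% at 48 h and 10.1% at 72 h. The share was 3.5% at 48 h and 8.56% at 72 h for IgG1 minus Emu, and 9.73% at 48 h and 5.45% at 72 h for hs4 minus Emu.

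In activated B18AIDKO cells the member shares were ordered by the time in TPL, but no change passed the test. They held 0.836, 0.961 and 0.819% without TPL, 1.53, 1.24 and 1.57% after 1 h and 2.02, 2.35 and 2.69% after 3 h. The 3 groups did not overlap. The short-range share had the opposite order, also with no overlap. It was 76.4, 79.1 and 75.9% without TPL, 74.6, 73.7 and 73.8% after 1 h and 72.5, 69.6 and 71.2% after 3 h. Against no TPL and without pairs under 10 kb, the members' median log2 change was 1.95 after 3 h and 0.68 after 1 h. With short pairs it was 0.92 and 0.66. Over all tested block pairs the medians were 0.85 and 0.05 without short pairs, against 0.50 and 0.14 with them. The part of the short-range share in the member shares was not tested. The log2 change after 3 h against no TPL was 1.41 (SE 0.40, limma adjusted p = 0.081), and after 1 h it was 0.72 (SE 0.40, limma adjusted p = 0.51). After 3 h against 1 h the change was 0.69 (limma adjusted p = 0.81).

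Neither part passed the test. The log2 changes of the IgG1 part were 1.35 after 3 h and 0.65 after 1 h (limma adjusted p = 0.17 and 0.60), and those of the IgG3 part were 1.59 and 0.29 (limma adjusted p = 0.45 and 0.90). The sign of the last value turned without replicate 2 of 1 h (-0.35) or replicate 3 of 1 h (-0.01). Limma called 0 of the 13 tested member block pairs after 1 h, after 3 h and between 3 h and 1 h. Over the map 1.07% of block pairs were called after 1 h, 0% after 3 h and 0% between 3 h and 1 h. At an unadjusted p under 0.05 the members numbered 0, 3 and 1, against 20, 27 and 11 over all tested block pairs. Voom called 0, 2 and 1 members, all higher, and no other block pair of the map.

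These maps were the sparsest. The libraries held an estimated 5400 to 8495 recovered contacts without TPL, 6580 to 14021 after 1 h and 6708 to 11056 after 3 h. The members with any signal numbered 7, 10 and 15 without TPL, 10, 19 and 28 after 1 h and 29, 44 and 75 after 3 h. In the first library without TPL a single bin pair carried 74.3% of the member signal. Pairs of the IgG2a window with the IgG1 window were at 0 in all 6 libraries of the first 2 groups, where 3 contacts would be a share of 0.0214 to 0.0556%. After 3 h they held 0.0210, 0.193 and 0.426%.

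The group means of the measures that do not use the map total had the same order, though libraries without TPL and after 1 h overlapped in 2 of the 3 measures, the distance-matched ratio and the share of signal ending in the IgG1 and IgG3 stretch. The distance-matched ratio was 0.222, 0.303 and 0.214 without TPL, 0.357, 0.296 and 0.402 after 1 h and 0.539, 0.463 and 0.637 after 3 h. The difference of 3 h from no TPL was 0.30, with an exact two-sided permutation p of 0.1, the smallest that 3 against 3 allow (0.167 adjusted over 15 comparisons). Members made up 3.52% of the signal with an end in the mid-locus without TPL, 7.92% after 1 h and 12.2% after 3 h. Of the signal with an end in the IgG1 and IgG3 stretch they made up 3.55, 4.996 and 3.82% without TPL, 4.38, 4.63 and 4.79% after 1 h and 7.54, 7.73 and 9.69% after 3 h. For this last share the difference of 1 h from no TPL was 0.48 (exact permutation p = 0.4), and -1.64 with each occupied pair counted once. The 3 Emu libraries of the activation set at 72 h, which the labels describe like those without TPL, held 1.47, 1.38 and 1.23% in the members, above all 3 libraries without TPL.

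Members held more of the map in Spt5-depleted cells than in the WT controls. Depleted libraries had 3.67 and 4.20% in clone 1 and 6.28, 5.85 and 5.88% in clone 2, against control values of 2.80 and 4.00% in clone 1 and 2.26 and 2.11% in clone 2. With clone as a term the log2 change was 0.89 (SE 0.16, limma adjusted p = 6.8e-05), and the call was lost under median-of-ratios scaling (0.50, limma adjusted p = 0.22) and with a constant prior variance (limma adjusted p = 0.11). The depleted and control libraries overlapped in clone 1 and not in clone 2.

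The IgG3 part rose by 1.38 on the log2 scale (SE 0.23, limma adjusted p = 6.8e-05), with depleted libraries at 1.24 to 1.89% and control libraries at 0.375 to 1.04%. The IgG1 part rose by 0.72 (SE 0.17, limma adjusted p = 0.0025). The IgG1 part made up 64.2 to 72.9% of member signal in depleted cells, against 74.03 to 83.5% in control cells. The IgG3-part call was lost with a constant prior variance (limma adjusted p = 0.053). The IgG1-part call was lost under median-of-ratios scaling (0.33), without pairs under 10 kb (0.31), without bins near the viewpoint (0.42), with a constant prior variance, with each occupied pair counted once (0.27) and without control clone 2 replicate 1 (0.62) or control clone 2 replicate 2 (0.55).

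Of the 32 tested member block pairs 7 were called higher and 0 lower, where 13.3% of all block pairs were called and 9.44% were called higher. The members' median log2 change was 0.99, against 0.39 over all 180 tested block pairs. In 2 of the 7 the groups did not overlap, where 7.78% of all block pairs were called without overlap. The pair 60-70 kb with 160-170 kb held 0.0867, 0.0887, 0.111, 0.0802 and 0.0644% in depleted cells, against 0.0424, 0.0162, 0.0106 and 0% in control cells (log2 change 1.78, SE 0.49, limma adjusted p = 0.013). The pair 80-90 kb with 160-170 kb held 0.0458, 0.0789, 0.0683, 0.114 and 0.0930% in depleted cells, against 0.0150, 0.0303, 0.00856 and 0.0165% in control cells (log2 change 1.48, SE 0.49, limma adjusted p = 0.036). Both end in the IgG3 part. The number called was 3 under median-of-ratios scaling, where 7.22% of block pairs over the map were called, 3 of them higher and 10 lower, against 17 higher and 7 lower before. It was 3 without pairs under 10 kb, where 2.83% were called (4 higher and 3 lower). It was 2 with no filter, 2 with a constant prior variance, 0 with each occupied pair counted once, 0 with a block for replicate number and 11 with sample weights. The share called over the map was not worked out for these settings, nor for the fits below that left out 1 library. These counts can therefore not be set against it. Median-of-ratios scaling moved the median over all block pairs to 0.06 and that of the members to 0.71. The number of members called also moved with single libraries left out. It fell to between 1 and 3 without control clone 1 replicate 1, control clone 2 replicate 1 or 2, or depleted clone 2 replicate 1, 2 or 3. It rose to 14 without control clone 1 replicate 3 and to 17 without depleted clone 1 replicate 3. The call of 60-70 kb with 160-170 kb was lost without control clone 2 replicate 2 (1.52). That of 80-90 kb with 160-170 kb was lost without any 1 of 7 libraries, the exceptions being control clone 1 replicate 3 and depleted clone 1 replicate 3.

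The size of the rise differed between the clones. Within clone 1 the log2 change of all members was 0.23 (SE 0.23, limma adjusted p = 0.90), with 0 of 27 member block pairs called by limma, where 0.565% were called over the map. Within clone 2 it was 1.45 (SE 0.09), with 28 of 33 called, where 41.6% were called over the map. The IgG3 part gave 0.58 in clone 1 (limma adjusted p = 0.80) and 2.05 in clone 2, and the IgG1 part 0.08 (limma adjusted p = 0.97) and 1.25. The difference of clone 2 from clone 1 was 1.22 (SE 0.21, limma adjusted p = 4.3e-04), where 1.11% of block pairs over the map were called for this difference.

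The short-range share moved with this difference. Pairs under 10 kb apart held 87.5 and 81.97% of the depleted maps in clone 1 and 78.1, 78.1 and 78.7% in clone 2, against 83.9 and 82.6% of the control maps in clone 1 and 87.6 and 90.8% in clone 2. Among pairs at least 10 kb apart the members held 25.7, 20.3, 25.2, 23.9 and 24.5% in depleted cells, against 14.9, 19.9, 14.1 and 19.5% in control cells, with no overlap. Without short pairs the difference between the clones was 0.16 on the log2 scale (limma adjusted p = 0.95). Under median-of-ratios scaling it was 0.16 (limma adjusted p = 0.93), and with a constant prior variance the call was lost as well (limma adjusted p = 0.13).

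The distance-matched ratio was 1.97, 1.49, 1.95, 1.97 and 1.87 in depleted cells, against 1.04, 1.42, 1.12 and 1.37 in control cells. The difference was 0.61, with an exact two-sided permutation p within clones of 0.017, the smallest this design allows, and 0.167 after adjustment over 15 comparisons. All 5 depleted libraries lay above all 4 control libraries. Members made up 15.8% of the signal with an end in the mid-locus in depleted cells and 12.2% in control cells, and 10.4% and 5.88% of that with an end in the IgG1 and IgG3 stretch. These shares overlapped between the groups (exact permutation p = 0.083 and 0.033 within clones, adjusted 0.214 and 0.15).

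**Figure D5:**
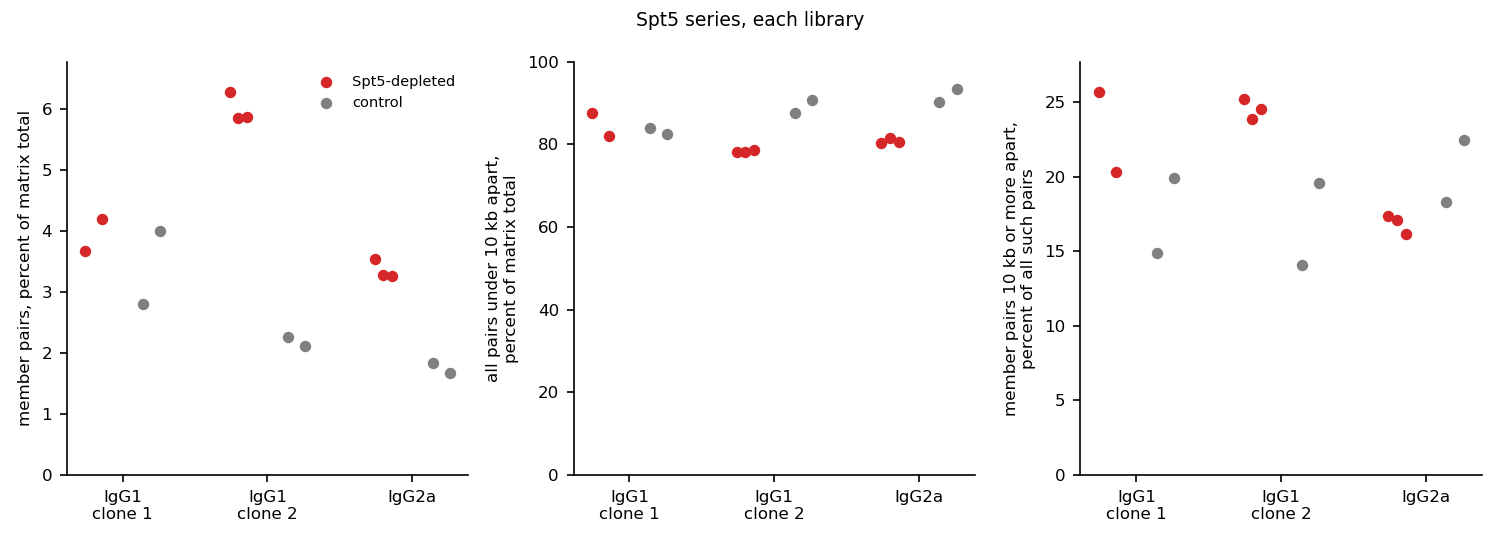
Spt5-depleted (red, left) and control (grey, right) libraries in the IgG1 and IgG2a captures, as member percent of the map total, percent of the map in pairs under 10 kb, and members as percent of pairs at least 10 kb apart. From IgG2a the depleted libraries are higher in the first panel (3.27% to 3.54% against 1.67% and 1.84%) and lower in the last (16.2% to 17.3% against 18.3% and 22.5%).

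From IgG2a, inside the mid-locus end, the members held 3.54, 3.29 and 3.27% in depleted cells, against 1.84 and 1.67% in control cells. The log2 change was 0.93 (SE 0.21, limma adjusted p = 0.031). This call was lost without any single depleted replicate, at 0.90 without replicate 1 and 0.95 and 0.96 without replicates 2 and 3. It was also lost under median-of-ratios scaling (0.59), without bins near the viewpoint (1.28), without the border bins (0.92), with a constant prior variance and with voom (0.69). The log2 change of the IgG1 part was 0.80 (limma adjusted p = 0.14) and that of the IgG3 part 1.09 (limma adjusted p = 0.093).

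The rise in the share of the map went with a lower short-range share. Pairs under 10 kb held 80.2, 81.5 and 80.7% of the depleted maps, against 90.3 and 93.3% of the control maps. Among pairs at least 10 kb apart the members held 17.3, 17.1 and 16.2% in depleted cells, against 18.3 and 22.5% in control cells, a log2 change of -0.27 (limma adjusted p = 0.36). The direction of the total therefore depended on whether short pairs were counted. Members made up 4.54% of the signal with an end in the mid-locus in depleted cells and 2.32% in control cells, and 24.1% and 17.4% of that with an end in the IgG1 and IgG3 stretch. Each had an exact permutation p of 0.1, the smallest that 3 against 2 allow, and both differences turned without short pairs.

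Of 31 tested member block pairs limma called 0, where 1.26% were called over the map. At an unadjusted p under 0.05 there were 7 members, against 42 over all tested block pairs. Over the map voom called 0 higher and 3 lower, and of the members it called 0. Limma called 3 without control replicate 1 and 1 without control replicate 2. Their median log2 change was 1.20, against 0.90 over all tested block pairs. Members made up 11.4 to 11.6% of the bin pairs with any signal in depleted cells, against 6.89 and 7.21% in control cells. The distance-matched ratio was 1.20 to 1.29 in depleted cells and 1.23 and 1.47 in control cells, a difference of -0.10 with an exact permutation p of 0.4. The IgG2a window paired with the IgG3 window at 0.283, 0.237 and 0.0566% in depleted cells, against 0.0708 and 0% in control cells.

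In the IgG3 capture of LPS cultures the member share did not pass the test between day 3 and day 0. Members held 4.66, 5.48 and 6.60% on day 3, against 7.06, 5.47 and 5.11% on day 0, and the ranges overlapped. The short-range share was 66.4 to 75.02% on day 3 and 65.8 to 73.5% on day 0. The log2 change was -0.08 (SE 0.15, limma adjusted p = 0.89), and its sign turned without day 0 replicate 1 (0.06) or day 3 replicate 1 (0.05).

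The IgG3 part, which holds the viewpoint, had a log2 change of 0.04 (limma adjusted p = 0.93; -0.10 without day 0 replicate 2 and -0.11 without day 3 replicate 3) and the IgG1 part one of -0.49 (limma adjusted p = 0.73). The IgG1 part made up 13.8 to 19.5% of member signal on day 3, against 15.8 to 32.1% on day 0. Limma called 0 of 32 tested member block pairs, where 0% were called over the map. At an unadjusted p under 0.05 there was 1 member, against 17 over all tested block pairs. Over the map voom called 2 higher and 0 lower, and of the members it called 0. The highest block pair of this capture, 120-130 kb with 160-170 kb, held 0.439, 0.493 and 1.76% on day 3, against 0.516, 0.276 and 0.579% on day 0. In the third day 3 library 1 bin pair carried 16.8% of the member signal. The distance-matched ratio was 1.44 to 1.51 on day 3 and 1.32 to 1.61 on day 0. Members made up 24.9% of the signal with an end in the mid-locus on day 3 and 21.6% on day 0 (exact permutation p = 0.3).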

How the data were processed

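Tri-C maps of 61 libraries were analysed. Per the submitters' processing notes reads were aligned with Bowtie2 to mm9, with versions and later steps not given in the sources used here. Each deposited file holds signal in an upper-triangle matrix of 1 kb bins, scaled by the authors to a sum of 300000. Whole contacts were recovered from the value steps with an inferred divisor per bin, chosen so that values off the diagonal came out whole. Of these values, scored under 20 contacts, 99.3% to 100% came out whole, which is therefore no check of the divisors. On the diagonal over 90% did so in 47 libraries. In 61 simulated libraries the recovered total lay within 5% of the true total in 49 and within 20% in 57. Intervals for such counts would cover counting error only. Signal was summed over 10 kb block pairs, over all member pairs and over both parts. limma 3.58.1 (R 4.3.3, trended) was fitted on log2(signal + 50) to features with a mean of at least 100 and adjusted by Benjamini-Hochberg over all features of a comparison. IgG1 activation libraries were averaged over clones by replicate number, and clone was a term for Spt5. Derived ratios were tested by exact permutation (scipy 1.17.1), adjusted over 15 comparisons. Scripts were tested on simulated data. Block pairs were named when called with no overlap between groups, up to 5 per direction. The members and lists were chosen with earlier results of these data known.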

Additional observations from a re-analysis of the deposited data

Results flagged for a closer look

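The response to activation differed between captures by interaction terms in limma. The IgG1 part gave -1.46 (48 h) and -2.11 (72 h) for the IgG1 capture minus the hs4 capture, and -1.17 (72 h) for the IgG1 capture minus the Emu capture, on the log2 scale. All members gave -1.58 at 72 h for the IgG1 capture minus the hs4 capture and 1.05 at 72 h for the hs4 capture minus the Emu capture. Each value rests on 2 libraries or averaged replicates at 0 h. Each of these 5 calls was lost under at least 1 of the alternatives run.

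The response to Spt5 depletion in the IgG1 capture differed between clones, as clone 2 minus clone 1, by 1.22 for all members, 1.17 for the IgG1 part and 1.47 for the IgG3 part. Without pairs under 10 kb these were 0.16, 0.14 and 0.32, none called.

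Among the 5 depleted IgG1 libraries the distance-matched ratio of clone 1 replicate 4, 1.49, lay far below the others. Chance flags about 1 in 20 groups by this rule, and 30 groups and measures were examined.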

How the results depend on the processing

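Values are log2 changes unless a count, ratio or share is named. Of 1103 alternative values over 16 settings, 964 kept their direction and their side of the threshold. In the IgG1 capture, both falls from 0 h and those of both parts passed the test under every alternative run. Same-numbered libraries correlated between -0.135 and 0.135 in their deviations from group means. These means rest on few libraries, so the correlations cannot tell whether replicate numbers pair the libraries. The counting of occupied pairs and the fits within and between Spt5 clones were added after seeing the data. For the values that follow, whose call, direction or size changed, the cause was not tested. Where no calls over the map are given above, a count of members called is not set against any here. For hs4 at 72 h without short pairs, 3 block pairs of the map were called higher and 0 lower. Under median-of-ratios scaling, the IgG1 capture gave 16 (48 h members called) and -0.036 (72 h against 48 h total), the hs4 capture gave -0.90 (48 h IgG3 part), the Emu capture gave -1.05 (48 h total), the Spt5 IgG1 set gave 0.50 (total), 0.33 (IgG1 part) and 3 (members called), the Spt5 IgG2a set gave 0.59 (total), the LPS set gave 0.053 (total), the clone difference gave 0.16 (total), 0.12 (IgG1 part) and 0.43 (IgG3 part) and differences between captures gave -1.09 (IgG1 minus hs4 at 48 h total) and 0.94 (hs4 minus Emu at 72 h total). Without pairs under 10 kb, the IgG1 capture gave 14 (48 h members called) and -0.090 (72 h against 48 h total), the hs4 capture gave -0.81 (48 h IgG3 part), 0 (72 h members called) and -0.046 (72 h distance-matched ratio), the Emu capture gave -0.82 (48 h total) and the Spt5 IgG1 set gave 0.31 (IgG1 part) and 3 (members called). In the same setting, the Spt5 IgG2a set gave -0.27 (total), -0.38 (IgG1 part), -0.14 (IgG3 part), -2.93 (mid-locus share) and -13 (IgG1 and IgG3 stretch share), the clone difference gave 0.16 (total), 0.14 (IgG1 part) and 0.32 (IgG3 part) and differences between captures gave -1.25 (IgG1 minus hs4 at 48 h IgG1 part), -1.11 (IgG1 minus Emu at 72 h IgG1 part) and 0.77 (hs4 minus Emu at 72 h total). Without bins within 10 kb of the viewpoint, the hs4 capture gave -0.077 (48 h IgG1 part), the Spt5 IgG1 set gave 0.42 (IgG1 part), the Spt5 IgG2a set gave 1.28 (total) and 0.35 (distance-matched ratio), the LPS set gave -0.15 (IgG3 part), -0.63 (mid-locus share) and -0.020 (distance-matched ratio), the clone difference gave 0.63 (IgG1 part) and differences between captures gave -1.12 (IgG1 minus hs4 at 48 h IgG1 part) and 0.85 (hs4 minus Emu at 72 h total). Without the 5 bins on either side of the border between the ends, the hs4 capture gave -0.40 (48 h IgG1 part) and -0.21 (72 h total), the Emu capture gave -1.19 (48 h total) and 0.15 (72 h IgG1 part), the TPL set gave -0.29 (1 h IgG3 part), the Spt5 IgG2a set gave 0.92 (total), the LPS set gave 0.051 (total) and differences between captures gave -1.17 (IgG1 minus hs4 at 48 h IgG1 part), -0.37 (hs4 minus Emu at 48 h IgG1 part), -1.20 (IgG1 minus hs4 at 72 h total), -1.68 (IgG1 minus hs4 at 72 h IgG1 part), -1.62 (IgG1 minus Emu at 72 h IgG1 part) and 0.70 (hs4 minus Emu at 72 h total). With a constant prior variance, the hs4 capture gave -1.22 (48 h IgG3 part) and 0 (72 h members called), the Emu capture gave -1.35 (48 h total), the TPL set gave 1 (3 h members called) and 1 (3 h against 1 h members called) and the Spt5 IgG1 set gave 0.89 (total), 0.72 (IgG1 part), 1.38 (IgG3 part) and 2 (members called). In the same setting, the Spt5 IgG2a set gave 0.93 (total), the clone difference gave 1.22 (total), 1.18 (IgG1 part) and 1.47 (IgG3 part) and differences between captures gave -1.46 (IgG1 minus hs4 at 48 h IgG1 part), -1.17 (IgG1 minus Emu at 72 h IgG1 part) and 1.05 (hs4 minus Emu at 72 h total). With sample weights, the Spt5 IgG1 set gave 11 (members called) and differences between captures gave -0.97 (IgG1 minus hs4 at 48 h total), -1.16 (IgG1 minus Emu at 72 h IgG1 part) and 1.07 (hs4 minus Emu at 72 h total). With the replicate block, the hs4 capture gave -1.18 (48 h IgG3 part), the Emu capture gave -1.28 (48 h total) and the Spt5 IgG1 set gave 0 (members called). With voom on recovered contacts, the hs4 capture gave -0.77 (48 h IgG3 part) and 1.09 (72 h IgG1 part), the Emu capture gave 1 (48 h members called), the TPL set gave -0.31 (1 h IgG3 part), 2 (3 h members called) and 1 (3 h against 1 h members called), the Spt5 IgG2a set gave 0.69 (total), the LPS set gave -0.14 (IgG3 part) and differences between captures gave -1.38 (IgG1 minus hs4 at 48 h total) and 0.93 (hs4 minus Emu at 72 h total). Counting each occupied pair once, the IgG1 capture gave -0.11 (72 h against 48 h total), the hs4 capture gave 0.025 (48 h total), 0.59 (48 h IgG1 part), 1 (48 h members called), 0.75 (72 h IgG1 part), -0.53 (72 h IgG3 part) and -0.026 (72 h distance-matched ratio), the Emu capture gave 0.20 (72 h IgG1 part) and -1.08 (72 h IgG3 part), the TPL set gave -0.81 (1 h IgG3 part), -1.64 (1 h IgG1 and IgG3 stretch share) and -0.028 (1 h distance-matched ratio) and the Spt5 IgG1 set gave 0.27 (IgG1 part) and 0 (members called). In the same setting, the Spt5 IgG2a set gave 0.56 (IgG1 part), 0.88 (IgG3 part), 3 (members called) and 0.19 (distance-matched ratio), the LPS set gave -0.10 (IgG3 part) and -0.11 (distance-matched ratio), the clone difference gave 0.46 (total) and 0.35 (IgG1 part) and differences between captures gave -0.87 (IgG1 minus hs4 at 48 h total), -0.65 (IgG1 minus Emu at 48 h IgG1 part), 0.54 (hs4 minus Emu at 48 h total), 0.71 (hs4 minus Emu at 48 h IgG1 part) and -0.58 (IgG1 minus Emu at 72 h total). With clone 1 alone, the Spt5 IgG1 set gave 0.23 (total), 0.080 (IgG1 part), 0.58 (IgG3 part) and 0 (members called). With clone 2 alone, the IgG1 capture gave 15 (48 h members called), 17 (72 h members called) and -0.062 (72 h against 48 h total) and the Spt5 IgG1 set gave 28 (members called). With no filter, the Spt5 IgG1 set gave 2 (members called). With a pseudocount of 10, the Spt5 IgG2a set gave 1 (members called).

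With single libraries left out in turn, the IgG1 capture gave 16 to 28 (48 h members called) and -0.079 to 0.27 (72 h against 48 h total), the hs4 capture gave -0.21 to 0.24 (48 h IgG1 part), -1.36 to -1.11 (48 h IgG3 part), -0.70 to -0.32 (48 h total), 1.54 to 2.00 (72 h block pair 120-130 with 130-140), 0 to 1 (72 h members called), 0.55 to 0.93 (72 h against 48 h total), -0.044 to 0.81 (72 h mid-locus share) and -3.25 to 0.093 (72 h IgG1 and IgG3 stretch share), the Emu capture gave -2.44 to -0.95 (48 h IgG3 part), -1.67 to -1.04 (48 h total), 0 to 1 (48 h members called), -2.30 to -0.81 (72 h IgG3 part), -1.13 to -0.51 (72 h total) and -2.15 to 0.15 (72 h mid-locus share), the TPL set gave -0.35 to 1.24 (1 h IgG3 part) and the Spt5 IgG1 set gave 1.52 to 2.03 (block pair 60-70 with 160-170), 1.30 to 1.68 (block pair 80-90 with 160-170), 0.55 to 0.92 (IgG1 part) and 1 to 17 (members called). In the same setting, the Spt5 IgG2a set gave 0.78 to 1.40 (IgG3 part), 0.86 to 1.01 (total), 0 to 3 (members called) and -0.22 to 0.022 (distance-matched ratio), the LPS set gave -0.11 to 0.22 (IgG3 part), -0.20 to 0.063 (total) and -0.021 to 0.12 (distance-matched ratio), the clone difference gave 1.18 to 1.75 (IgG3 part) and differences between captures gave -0.38 to 0.25 (IgG1 minus Emu at 48 h total), -1.13 to -0.72 (IgG1 minus hs4 at 48 h total), 0.68 to 1.12 (hs4 minus Emu at 48 h IgG1 part), 0.55 to 1.17 (hs4 minus Emu at 48 h total), -1.37 to -0.96 (IgG1 minus Emu at 72 h IgG1 part) and 0.73 to 1.36 (hs4 minus Emu at 72 h total). Member pairs with any signal numbered 7 to 75 in the TPL libraries and 36 to 50 in the Emu libraries of the activation set, so values of single block pairs there rest on few contacts.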
